A study of Homo sapiens with 6 samples.

Results

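MTF1, the cell's zinc sensor, and 9 zinc transporters of the SLC30 and SLC39 families were followed in 786-O cells grown with or without added copper. The 10 genes were chosen by symbol for what they do, and all 10 were among the 25987 genes with a symbol in the count table. All 10 also passed the filter on low counts that left 12944 genes for testing. 786-O is an established line from a human clear cell renal carcinoma, labelled wild type and grown in DMEM/F12 medium with serum. In 3 copper cultures the serum had been loaded with copper sulfate, and the cells were adapted to it. The 3 control cultures received serum handled the same way without copper. Copper is given as 30 uM in the series text, but as 30, 31 and 32 uM in the labels of replicates 1, 2 and 3, and the 3 cultures were kept as 1 group. All cultures come from 1 cell line, and nothing in the labels says when or from which passage each was taken, so p-values measure only the spread between these cultures. As each library averages over a whole culture, fewer cells that express a gene and less RNA per cell cannot be told apart.

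Zinc and copper share part of their handling in the cell. SLC30 proteins, also called ZnT, lower cytosolic zinc by carrying it out of the cell or into organelles, and SLC39 proteins, also called ZIP, raise it by bringing zinc in from outside or from organelles. MTF1 binds zinc through its zinc fingers, moves to the nucleus and switches on genes that carry metal response elements, above all the metallothioneins and SLC30A1. Copper can reach this pathway by displacing zinc from metallothionein, so both gene groups are known to answer to several metals. In other species MTF1 is known to hold the SLC39A10 gene down.

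The start regions of SLC30A1 and SLC39A10 are shown because these are the transporters known to answer to MTF1, with that of the metallothionein MT2A for comparison. The core of the metal response element was searched as TGCACNC and TGCGCNC on both strands. Each sequence covers 250 bases before and 50 bases after a listed start of the gene (GRCh38.p14), 5′ to 3′ on the gene's strand. For SLC39A10 this is not the start of the whole RefSeq gene, which lies at base 195613029 of chromosome 2. Capitals mark the matches, so a match on the opposite strand appears as its reverse complement.
SLC30A1, chr1:211579112-211579411, minus strand: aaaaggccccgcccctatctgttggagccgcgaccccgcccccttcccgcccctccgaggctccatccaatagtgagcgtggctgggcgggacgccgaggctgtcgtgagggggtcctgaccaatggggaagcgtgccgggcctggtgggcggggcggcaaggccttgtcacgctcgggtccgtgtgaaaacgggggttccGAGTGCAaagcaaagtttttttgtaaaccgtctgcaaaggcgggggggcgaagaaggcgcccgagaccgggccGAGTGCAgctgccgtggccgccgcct
SLC39A10, chr2:195656976-195657275, plus strand: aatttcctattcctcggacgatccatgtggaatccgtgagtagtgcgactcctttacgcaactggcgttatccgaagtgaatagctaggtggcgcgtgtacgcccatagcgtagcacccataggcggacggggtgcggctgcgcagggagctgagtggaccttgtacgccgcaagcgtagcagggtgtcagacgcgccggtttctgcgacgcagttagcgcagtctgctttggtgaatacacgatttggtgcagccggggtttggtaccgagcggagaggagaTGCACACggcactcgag
MT2A, chr16:56608334-56608633, plus strand: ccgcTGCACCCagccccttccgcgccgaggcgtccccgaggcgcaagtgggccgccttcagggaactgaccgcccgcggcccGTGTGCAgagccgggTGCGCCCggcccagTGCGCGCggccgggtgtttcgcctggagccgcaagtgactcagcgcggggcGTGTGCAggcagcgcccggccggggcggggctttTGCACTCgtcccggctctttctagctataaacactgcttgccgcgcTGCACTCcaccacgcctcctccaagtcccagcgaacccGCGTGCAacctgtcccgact
The SLC30A1 sequence held 2 matches, at bases -49 to -43 and 25 to 31 counted from the gene start, and both read TGCACTC on the opposite strand. The SLC39A10 sequence held 1 match, TGCACAC at bases 34 to 40 from its listed start. The sequence at its other listed start, chr2:195656708-195657007, held 0, and the deposited gene start, 195656958, lies in that sequence. MT2A held 8 matches and MT1X 4. Of all 35116 start regions of 300 bases, 29.6% held at least 1 match, 8.60% at least 2 and 0.601% at least 4. RefSeq start regions were matched for 9 of the 10 genes, all but SLC39A14, and 4 of the 9 held a match. Besides SLC30A1 and SLC39A10 these were SLC30A6, with TGCACTC on the opposite strand at bases -128 to -122, and SLC39A6, with TGCGCGC at bases -17 to -11. MTF1, SLC30A5, SLC30A7, SLC30A9 and SLC39A7 held 0 matches. A match is a string of letters and shows no binding, and the GC content of these regions was above the median of 58.7% for most of the genes (68.0% for SLC30A1 and 69.7% for MTF1).

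**Figure D1:**
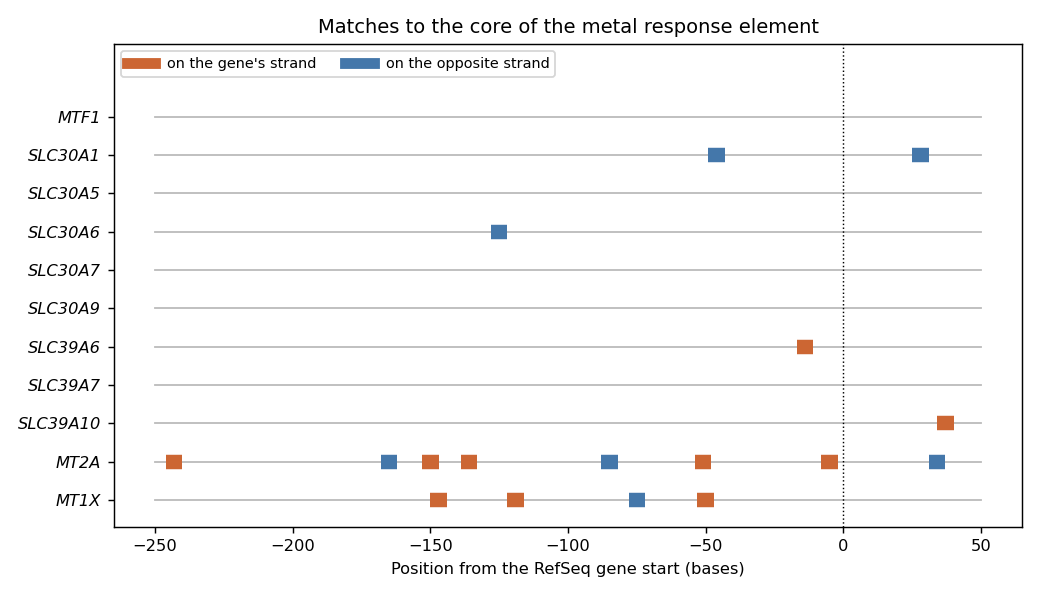
Positions of matches to TGCACNC or TGCGCNC in start regions of 9 of the 10 genes and of MT2A and MT1X. The x axis gives bases from the listed start of each gene (dotted line), which for SLC39A10 is not the start of the whole RefSeq gene. Orange marks a match on the gene's strand and blue one on the opposite strand. The 2 listed starts of SLC39A10 are drawn on 1 line, and only the second holds a match. SLC30A1 shows 2 matches against 8 for MT2A and 4 for MT1X.

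Totals ran from 16301772 to 18189469 counts for copper libraries and from 19219090 to 25079913 for controls, and the 10 genes together took 0.103% to 0.115% of them. Replicate 3 stood apart in both groups: the first principal component, 56.4% of the variance, placed it at 42.3 in copper and 18.4 in control, against -18.1 to -12.2 for the other 4 libraries. Between libraries of a group, chi-square per degree of freedom was 5.04 to 61.1, so none was a repeat of another. PAX8, KRT8, KRT18, CDH2 and VIM, expected of a renal carcinoma line, were expressed, while CA9 had 0 to 2 counts per library. PAX2, also expected, was expressed at a lower level and was higher in copper (log2 fold change 0.36, unadjusted p 0.0494 by edgeR), without a call. Its groups did not overlap, as for 10.8% of all tested genes. Of 7 markers of blood, endothelial and stromal cells, 3 passed the count filter and 0 were at 0 in every library. Their sum was 9.63 to 13.7 CPM in copper and 13.1 to 19.4 CPM in control. CPM is the count of a gene per 1000000 counts of the library, with library sizes scaled by TMM factors. The ranges overlapped. COL1A1 made most of the difference, at 3.42 CPM in copper against 6.53 CPM in control, and its part in the results was not tested.

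MTF1 RNA did not pass the test. MTF1 (Entrez 4520; chromosome 1, 37809575 to 37859592, minus strand) was at 34.8, 32.6 and 26.6 CPM in copper replicates 1, 2 and 3 and at 35.2, 36.8 and 32.1 CPM in control. The groups overlapped, and replicate 3 was the lowest library of each. The means were 31.3 ± 4.24 and 34.7 ± 2.39 CPM (SD, n = 3). The log2 fold change, copper over control, was -0.15 (SE 0.13), with a 95% interval from -0.44 to 0.15 and an adjusted p of 1.00 by edgeR's quasi-likelihood test. MTF1 is known to be controlled largely through its protein, whose activity was not measured here.

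SLC30A1 (ZnT1), which exports zinc across the plasma membrane, had the largest difference of the 10 genes, and replicates differed in it. SLC30A1 (Entrez 7779; chromosome 1, 211571568 to 211579161, minus strand) was at 24.0, 27.5 and 8.69 CPM in copper replicates 1, 2 and 3, and at 10.8, 11.4 and 8.07 CPM in control. Copper replicates 1 and 2 lay above all 3 control libraries, while copper replicate 3 lay within the control range. Before scaling these were 393, 491 and 161 counts in copper and 268, 233 and 154 in control. The means were 20.1 ± 10.0 CPM in copper and 10.1 ± 1.78 CPM in control (SD, n = 3), a ratio of 1.99.

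Across all 6 libraries the log2 fold change of SLC30A1 was 0.98 (SE 0.39). Its 95% interval for the gene taken alone ran from 0.081 to 1.89, and its adjusted p by edgeR was 1.00. It ranked 319 of 12944 genes by p, and 99.7% of tested genes had a fold change no higher. In replicates 1 and 2 alone the log2 fold change was 1.21 with an adjusted p of 0.000222, and without copper replicate 3 it was 1.34 with an adjusted p of 0.0186. SLC30A1 was the 1 gene of the 10 that edgeR called in replicates 1 and 2 alone, where 0.856% of all tested genes were called. The choice of these libraries was made with the position of replicate 3 known.

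As a log2 value, the copper difference of SLC30A1 was 1.15 in replicate 1, 1.27 in replicate 2 and 0.11 in replicate 3. The interaction term, replicate 3 minus replicates 1 and 2, was -1.10 (SE 0.20) with an adjusted p of 0.000160 by edgeR. That test takes its spread from replicates 1 and 2 only, and replicate 3 has 1 library per group, so a property of copper replicate 3 and one of its culture cannot be told apart. It called 28% of all tested genes, so a difference in replicate 3 is common in these data. After removal of the trend with transcript length and with GC in every library, the difference in replicate 3 was 0.50, against 1.11 and 1.19 in replicates 1 and 2. In that corrected fit, with replicate number as a block, SLC30A1 was called at a log2 fold change of 0.98 (SE 0.13, adjusted p 0.0128 by edgeR). The same fit called 120 of 12944 tested genes, against 22 with the block alone.

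**Figure D2:**
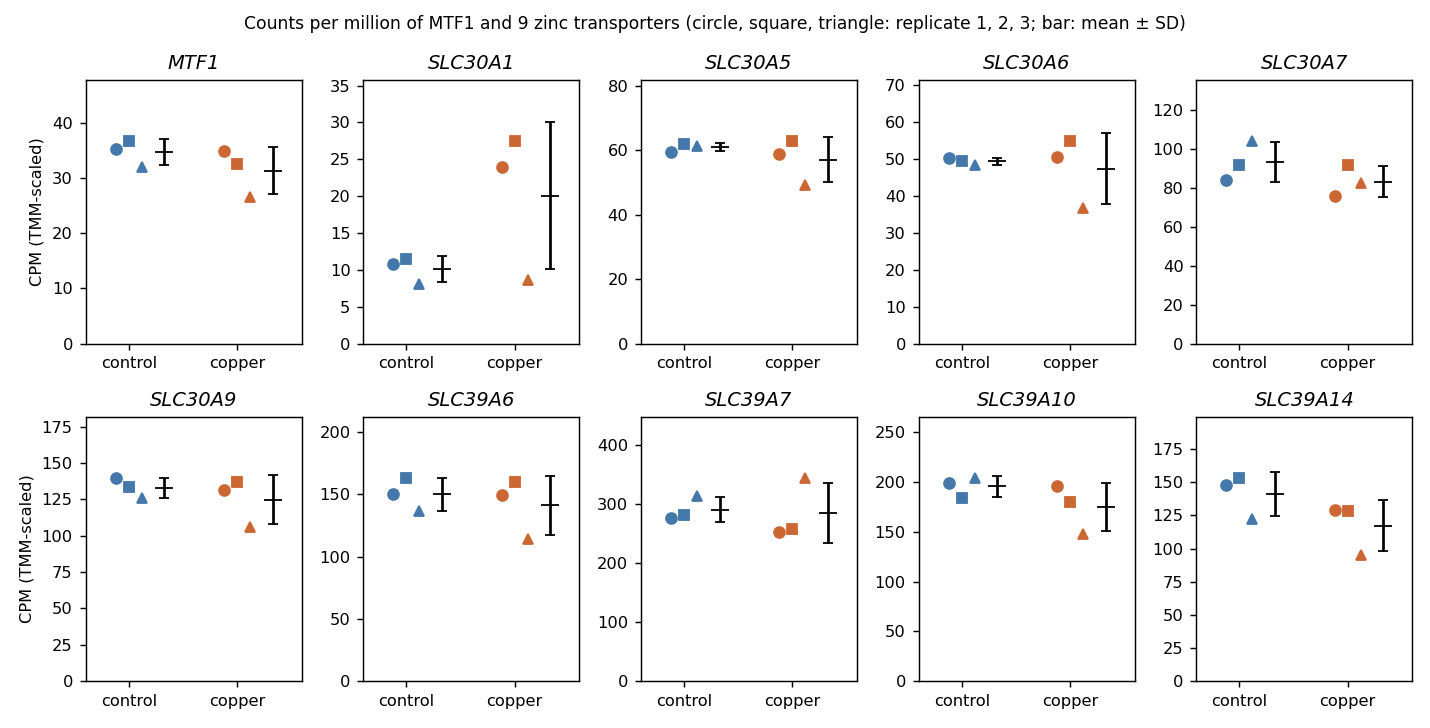
CPM of each gene in each library, with control in blue and copper in orange. Circles, squares and triangles are replicates 1, 2 and 3, black bars are mean ± SD of 3 libraries, and each y axis starts at 0. SLC30A1 is high in copper replicates 1 and 2 (24.0 and 27.5 CPM) and at 8.69 CPM in copper replicate 3, and the groups overlap in all 10 panels.

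The 4 exporters of organelles had negative log2 fold changes and none passed the test. SLC30A5 (ZnT5) and SLC30A6 (ZnT6) form a complex that loads zinc into the early secretory pathway, and SLC30A7 (ZnT7) does so alone. SLC30A5 (Entrez 64924; chromosome 5, 69094014 to 69104740) was at 58.8, 63.0 and 49.3 CPM in copper and at 59.6, 61.9 and 61.4 CPM in control. SLC30A6 (Entrez 55676; chromosome 2, 32165864 to 32224379) was at 50.7, 55.0 and 36.6 CPM in copper and at 50.3, 49.5 and 48.5 CPM in control. For both partners the control libraries lay close together, with SDs of 1.17 and 0.906 CPM, and copper replicate 3 lay below them (copper replicate 1 too, by under 1 CPM, for SLC30A5). Their log2 fold changes were -0.10 (SE 0.11) and -0.06 (SE 0.15), with 95% intervals from -0.36 to 0.17 and from -0.41 to 0.30. In replicates 1 and 2 alone both signs turned, to 0.0048 and 0.083, with adjusted p-values of 0.985 and 0.676 by edgeR.

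SLC30A7 (Entrez 148867; chromosome 1, 100896090 to 100981757) was at 75.8, 91.8 and 82.4 CPM in copper and at 84.2, 92.1 and 104 CPM in control. Copper was the lower in each replicate as numbered, with log2 differences of -0.15, -0.0048 and -0.34. The groups overlapped, and copper replicate 2 (91.8 CPM) lay above control replicate 1 (84.2 CPM). The log2 fold change was -0.17 (SE 0.12), with a 95% interval from -0.44 to 0.11. SLC30A9 (ZnT9; Entrez 10463; chromosome 4, 41990530 to 42090461), a zinc exporter of mitochondria, was at 131, 137 and 106 CPM in copper and at 140, 134 and 126 CPM in control. Copper replicate 3 was again the lowest library. Its log2 fold change was -0.09 (SE 0.12), with a 95% interval from -0.37 to 0.19, and without copper replicate 3 it was 0.013.

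The 4 importers also had negative log2 fold changes, with a median of -0.13, and none passed the test. SLC39A6 (ZIP6) and SLC39A10 (ZIP10) are related plasma membrane importers that pair with each other. SLC39A6 (Entrez 25800; chromosome 18, 36111000 to 36129394, minus strand) was at 150, 160 and 114 CPM in copper and at 150, 163 and 137 CPM in control. SLC39A10 (Entrez 57181; chromosome 2, 195656958 to 195737699) was at 196, 181 and 148 CPM in copper and at 199, 184 and 204 CPM in control. In replicates 1 and 2, matched by number, these 2 importers differed between copper and control by no more than 0.031 on the log2 scale. Set across numbers they differed more, as for SLC39A10 at 196 CPM in copper replicate 1 and 184 CPM in control replicate 2. In replicate 3 copper was lower by 0.26 for SLC39A6 and 0.46 for SLC39A10. Over all libraries the log2 fold changes were -0.09 (SE 0.14) for SLC39A6 and -0.16 (SE 0.12) for SLC39A10, with 95% intervals from -0.42 to 0.24 and from -0.45 to 0.12.

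SLC39A7 (ZIP7), which releases zinc from the endoplasmic reticulum, had the most counts of the 10 genes. SLC39A7 (Entrez 7922; RefSeq GRCh38.p14 chromosome 6, 33200867 to 33204437) was at 254, 258 and 345 CPM in copper and at 277, 282 and 315 CPM in control. Replicate 3 was the highest library of each group, with copper replicate 3 above all 3 controls. The copper difference was -0.12, -0.13 and 0.13 in replicates 1, 2 and 3, and the log2 fold change over all was -0.03 (SE 0.14), with a 95% interval from -0.35 to 0.30. The position deposited for SLC39A7 does not overlap the RefSeq gene and is not printed, and 8.58% of its exon bases overlap those of RXRB on the other strand, as 9.20% of those of SLC30A5 overlap an antisense RNA, in GENCODE 29. The use of strand in counting is not given in the sources used here, so reads from these overlaps cannot be assigned.

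SLC39A14 (ZIP14), an importer that also carries iron and manganese, was lower in copper in each replicate. SLC39A14 (Entrez 23516; chromosome 8, 22367538 to 22422736) was at 129, 128 and 94.9 CPM in copper and at 148, 153 and 122 CPM in control. Control replicate 3 was below copper replicates 1 and 2, so the groups overlapped. Its copper difference as a log2 value was -0.20, -0.26 and -0.36 in replicates 1 to 3. The log2 fold change was -0.27 (SE 0.15), with a 95% interval from -0.62 to 0.086 and an adjusted p of 1.00 by edgeR, and with replicate number as a block the adjusted p was 0.451. In replicates 1 and 2 alone it was -0.23 with an adjusted p of 0.0967, and in the blocked fit of those 4 libraries it was called (adjusted p 0.00276), a fit that called 912 genes.

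Together, 0 of the 10 genes were called by edgeR, against 0% of all 12944 tested genes, and at an unadjusted p under 0.05 there was 1, SLC30A1, against 3.52% of all genes. DESeq2 called 0 of the 10, against 0.209% of all genes, and also had SLC30A1 alone at an unadjusted p under 0.05, against 3.41%. With replicate number as a block edgeR called 22 genes, 0.17% of those tested, and 0 of them were among the 10. There, SLC30A1 (log2 fold change 0.90, SE 0.20) and SLC39A14 (-0.27, SE 0.084) had unadjusted p-values of 0.00200 and 0.0111, in a fit where 8.41% of genes were under 0.05. The groups did not overlap for 0 of the 10 genes, against 10.8% of all tested genes. The median log2 fold change of the 10 was -0.09, with 9 of 10 negative. Over all tested genes the median was 0.0052, with 6287 of 12944 negative. Without copper replicate 3, SLC30A6, SLC30A9 and SLC39A6 turned positive. In replicates 1, 2 and 3 the difference was negative for 8, 6 and 8 of the 10, with medians of -0.022, -0.017 and -0.29. As numbered, 5 genes were negative in all 3 replicates (MTF1, SLC30A7, SLC39A6, SLC39A10 and SLC39A14). Replicates 1 and 2 are matched by number alone, as the labels name no pairs. With copper 1 set against control 2 and copper 2 against control 1, SLC30A7, SLC39A6 and SLC39A10 were not lower in every pair. SLC30A1 was higher in copper in each replicate, joined by SLC30A6 in replicate 1, by SLC30A5, SLC30A6 and SLC30A9 in replicate 2 and by SLC39A7 in replicate 3.

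**Figure D3:**
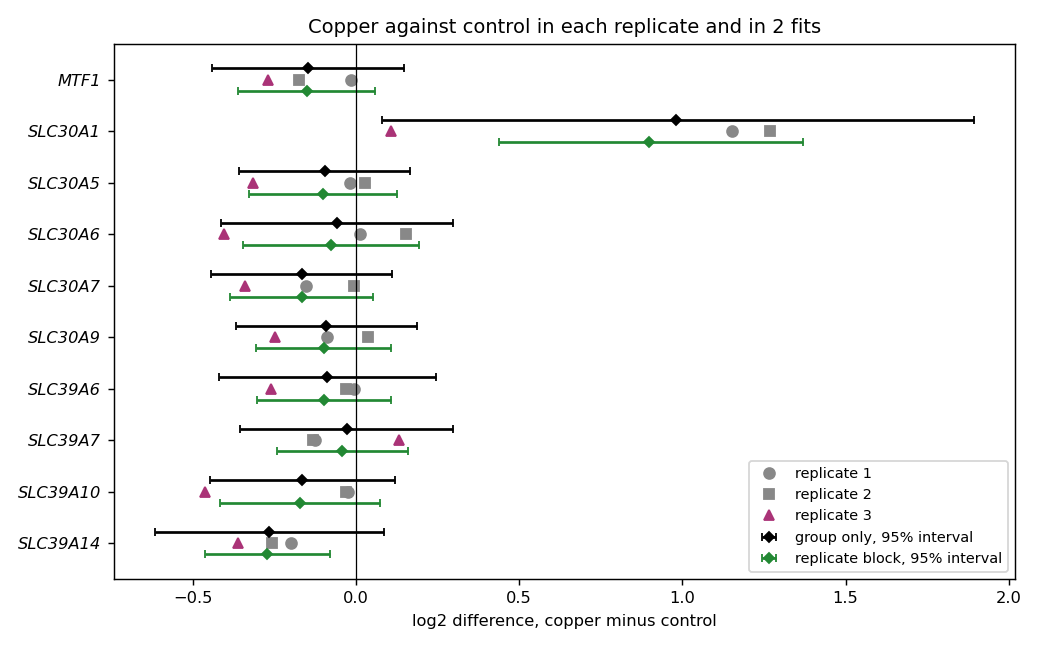
Log2 difference, copper minus control, for each gene in replicates 1 and 2 (grey circle and square) and 3 (purple triangle), with the fitted value and its 95% interval from edgeR without (black) and with (green) the replicate block. SLC30A1 lies at 1.15 and 1.27 in replicates 1 and 2 and at 0.11 in replicate 3. The other 9 genes lie between -0.46 and 0.15.

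Replicate 3 moved several of the 10 genes within a group. Against the mean of replicates 1 and 2, copper replicate 3 was lower by 1.56 on the log2 scale for SLC30A1 and by 0.30 to 0.53 for SLC30A5, SLC30A6, SLC30A9, SLC39A6, SLC39A10, SLC39A14 and MTF1. It was higher by 0.43 for SLC39A7 and differed by -0.017 for SLC30A7. In control, replicate 3 was lower by 0.46 for SLC30A1 and by 0.30 for SLC39A14, while SLC39A7 and SLC30A7 were higher by 0.17 and 0.25. The median over the 10 was -0.34 in copper and -0.08 in control, against -0.0022 and 0.0079 over all tested genes. The interaction term was called for 8 of the 10 genes, 7 lower and 1 (SLC39A7) higher in replicate 3, in a test that called 28% of all tested genes. It was not called for MTF1 (adjusted p 0.335) or SLC39A14 (adjusted p 0.231) by edgeR. All these values are without the length and GC correction. With it, the copper difference in replicate 3 went from -0.27 to -0.049 for MTF1 and from -0.40 to -0.14 for SLC30A6. For SLC30A9 it went from -0.25 to 0.089 and for SLC39A6 from -0.26 to -0.063. It also shrank for SLC30A5, SLC30A7, SLC39A7 and SLC39A10, but grew for SLC30A1 and SLC39A14 (-0.36 to -0.52). The part of length and GC was not tested.

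**Figure D4:**
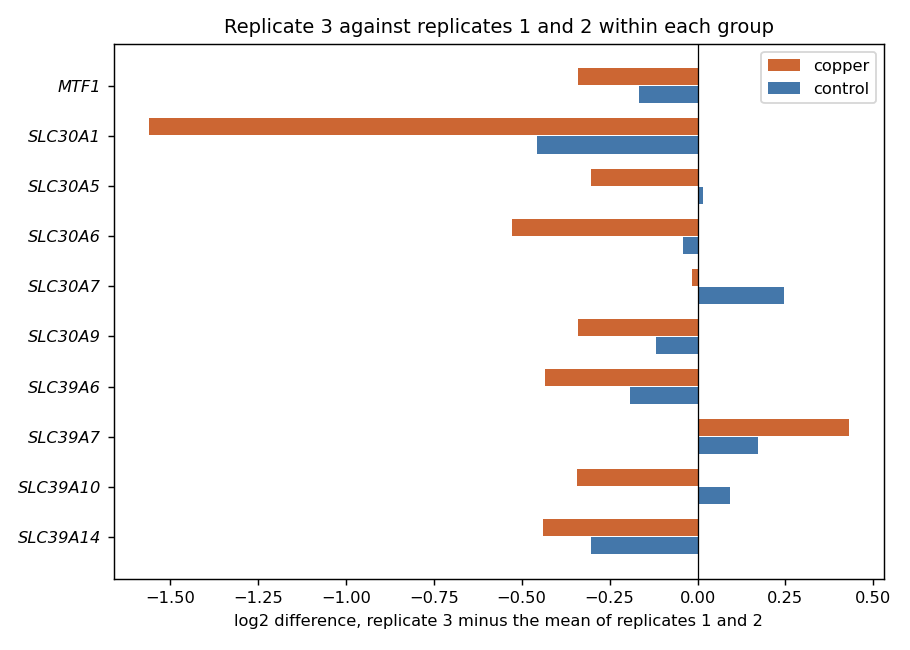
Log2 CPM of replicate 3 minus the mean of replicates 1 and 2, in copper (orange) and control (blue), 1 library against 2 for each bar. SLC30A1 has the longest bars, at -1.56 in copper and -0.46 in control, and SLC39A7 is higher in replicate 3 of both groups.

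Per length of transcript, SLC30A1 was the least abundant of the 10 in both groups and MTF1 the next. Scaled to the median GENCODE 29 transcript length of each gene, SLC30A1 was at 1.84 ± 0.325 CPM per kilobase in control and 3.66 ± 1.83 in copper (SD, n = 3). MTF1 was at 8.27 ± 0.571 in control and 7.47 ± 1.01 in copper. In control, SLC39A10 (337 ± 17.8), SLC39A14 (244 ± 28.99) and SLC39A7 (163 ± 11.5) stood at the top, with no overlap between their libraries. SLC30A5 (79.9 ± 1.54) and SLC30A7 (73.1 ± 7.97) came next and overlapped each other, as did SLC30A7 and SLC39A6 (64.4 ± 5.65), followed by SLC30A9 (31.5 ± 1.65) and SLC30A6 (20.9 ± 0.384). The order in copper was the same. The middle and top of this order rest on the length used: with the longest transcript of each gene SLC39A7 was first in control, at 121 CPM per kilobase, then SLC39A6 at 42.4, SLC39A10 at 36.1 and SLC39A14 at 30.4, while SLC30A1 (1.84) and MTF1 (4.35) remained last. SLC30A1 made up 0.336%, 0.381% and 0.131% of the summed level of 24 zinc transporters in copper replicates 1, 2 and 3 and 0.144%, 0.150% and 0.108% in control. With the longest transcripts these shares were over 3 times as large, at 1.25%, 1.39% and 0.438% in copper and 0.536%, 0.555% and 0.389% in control.

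Of the 15 other zinc transporters, 8 were expressed well enough to test and 0 were called by edgeR with or without the block. Among exporters only SLC30A4, of endosomes, was tested (log2 fold change -0.17), and SLC30A2, SLC30A3, SLC30A8 and SLC30A10 had 0 to 7 counts per library. Of 10 other importers 7 were tested, 4 with a positive and 3 with a negative log2 fold change, and the smallest p was that of SLC39A11 (0.20, adjusted p 1.00). SLC39A1, an importer of the plasma membrane, had 14 to 20 counts per library, and 60.8% of its exon bases are shared on the same strand with another GENCODE 29 gene.

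The summed level of the metallothioneins, the other main targets of MTF1, was above control in replicate 3 as in replicates 1 and 2. Of 12 genes 5 were tested. By edgeR 0 were called without the block and 3 were called higher with it, namely MT2A, MT1X and MT1E. The blocked fit called 0.17% of all tested genes in either direction. DESeq2 without the block called the same 3 genes higher, in a fit that called 0.209% of all tested genes. Summed over the family, the metallothioneins reached 996 ± 70.5 CPM with copper against 463 ± 16.1 CPM without (SD, n = 3). Most of both sums was MT2A, at 719 ± 85.9 CPM with copper and 343 ± 12.8 CPM without. The log2 difference of the sum was 1.04, 1.13 and 1.13 in replicates 1 to 3. Not every tested gene of the family followed it: MT1L was lower in copper in replicate 1 (-0.12) and MT1F in replicate 2 (-0.07). In replicate 3, where the SLC30A1 difference was 0.11, MT2A was higher by 1.19, MT1X by 1.67 and MT1E by 0.88. The interaction term was called for these 3 genes too, higher in replicate 3 for MT2A and lower for MT1X and MT1E, with adjusted p-values of 0.0383, 0.00630 and 8.61e-05 by edgeR, beside the 28% of all tested genes that it called. Pearson's r between log2 SLC30A1 and the log2 sum over the 6 libraries, which share depth and scaling, was 0.58.

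Of 10 genes of zinc signalling and clients of zinc transporters, 8 were tested and 0 called. ENPP1, an ectoenzyme that needs zinc, had the smallest p, with a log2 fold change of -0.32 and an adjusted p of 1.00 by edgeR (0.451 with the block). Of 8 iron and copper transporters, 6 were tested and 0 called, and the copper exporter ATP7A had the smallest p (log2 fold change -0.40, adjusted p 1.00). That value rests on replicate 3: the copper difference of ATP7A was -0.08, -0.15 and -1.09 in replicates 1, 2 and 3, and in replicates 1 and 2 alone the log2 fold change was -0.12 (adjusted p 0.653 by edgeR). In replicates 1 and 2 alone edgeR called 1 gene of this list, TFRC, higher in copper (0.32, adjusted p 0.0321), where 0.856% of all tested genes were called. The copper difference of TFRC was 0.37, 0.27 and -0.29 in replicates 1, 2 and 3.

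Over the 6 libraries, the genes whose log2 CPM ran most like that of SLC30A1, among 10290 others of at least 5 CPM, were ME1 (Pearson's r 0.998), NAA40 (0.991), SEPHS2 (0.988), IDH1 (0.987) and AHSA1 (0.985). Their range was smaller: ME1 was at 103, 108 and 79.9 CPM in copper replicates 1, 2 and 3 and at 83.8, 84.0 and 76.4 CPM in control. Those most like MTF1 were FOSL2, COL12A1, STAU1, CCBE1 and IGF1R, with r from 0.994 to 0.995. Among the 10 genes, MTF1 ran closest to SLC39A14 (r 0.97) and apart from SLC30A1 (0.33), and SLC39A7 was negative against 8 of the other 9. These values describe 6 libraries that share depth and scaling and in which replicate 3 stands apart.

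**Figure D5:**
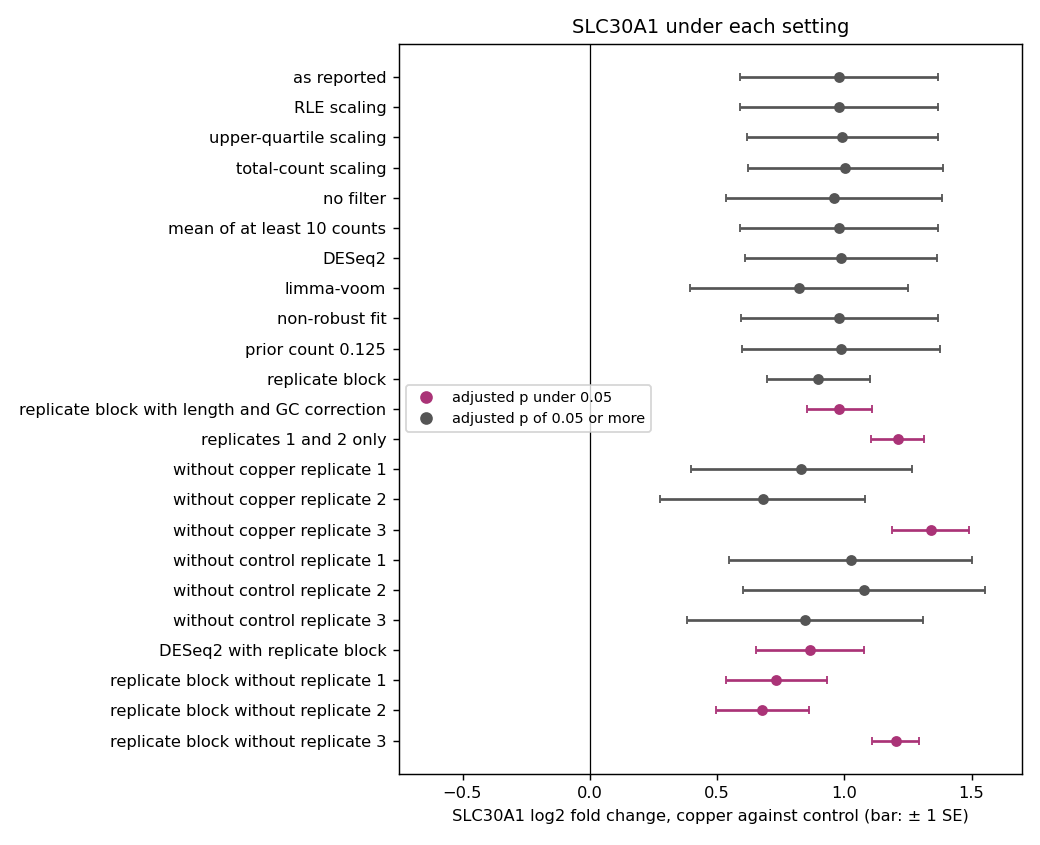
Log2 fold change of SLC30A1, copper against control, under each setting, with bars of 1 SE. Purple marks an adjusted p under 0.05, and grey the others. Every value lies between 0.68 and 1.34, and the settings without copper replicate 3 give the highest.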

How the data were processed

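The deposited file holds raw counts per gene for 6 libraries, made from total RNA with a directional kit per the labels. The submitters' processing notes name GRCh38, STAR, FastQC and edgeR, with no versions. The annotation, the counter and the use of strand are not given in the sources used here. Positions are as deposited, except that of SLC39A7, with 1 added to starts that count from 0. The deposited SLC30A5 ends at base 69104740, short of the RefSeq end at 69131069. SLC30A7 and SLC39A14 also end short of RefSeq. Whether the counts cover the rest of these genes was not tested. The 5 entries that carry no symbol, with 0.000814% of counts, were dropped.

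Counts were tested in R 4.3.3 with edgeR 4.0.16 (filterByExpr, minimum count 10 and total 15; TMM; robust quasi-likelihood test; group as the term; prior count 2; Benjamini-Hochberg over 12944 genes, called under 0.05). SEs and 95% intervals come from the same fit. Alternatives used DESeq2 1.42.0, limma 3.58.1, other scalings and filters, left-out libraries and a replicate block. Same-numbered libraries deviated together (correlations 0.44, 0.38 and 0.64 over genes, all above 0.1), although the labels name no shared batch. Copper 1 with control 2 (0.30) and copper 2 with control 1 (0.26) were above 0.1 too, so only replicate 3 was clearly set apart. Length and GC trends were splines with 4 degrees of freedom on GENCODE 29 medians (99.2% of tested genes). Counts were simulated with replicate effects and 200 of 12844 genes changed by a fold of 2. The group-only fit recovered 141 with 0 false calls, and the blocked fit 199 with 8. The simulated replicate effects were the same in both groups, which favours the block, and the changed genes were drawn from those with more counts. In the real data the interaction with replicate 3 was called for 28% of tested genes, so the simulation does not show which fit suits them.

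The members and lists were chosen with earlier results of these data known. All 10 members are named whatever their values, with the smallest-p gene of each list, MT2A, MT1X, MT1E and the 5 genes most like SLC30A1 and MTF1.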

Additional observations from a re-analysis of the deposited data

How the results depend on the processing

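The log2 fold change of SLC30A1 stayed positive under all 22 alternatives (0.679 to 1.34) and was called under 7: the replicate block with length and GC correction (0.980), replicates 1 and 2 only (1.21), without copper replicate 3 (1.34), DESeq2 with the replicate block (0.866), and the replicate block without replicate 1 (0.733), 2 (0.679) or 3 (1.20). The replicate block alone gave 0.897 and no call. Leaving out 1 library gave 0.679 to 1.34. The number of the 10 genes called was 0, or 1 under those 7 settings (2 in the block without replicate 3, with SLC39A14). The last 4 block settings were chosen after seeing the data. Over all genes, the count of 0 became 22 with the replicate block, 27 with DESeq2, 120 when block and length and GC correction were joined, 12 with no filter, 111 in replicates 1 and 2 only, 58 with DESeq2 and the block, and 74, 77 and 912 in the block without replicate 1, 2 or 3. Leaving out 1 library without the block gave 0 to 15, with 15 only without copper replicate 3.

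Small differences changed sign. In replicates 1 and 2 only, SLC30A5 (0.00475) and SLC30A6 (0.0831) were positive, as in the block without replicate 3 (0.00305 and 0.0814). Without copper replicate 3, SLC30A6 (0.0964), SLC30A9 (0.0129) and SLC39A6 (0.0427) were positive. Over the fits that each left out 1 library, values ranged from -0.183 to 0.0964 for SLC30A6, -0.168 to 0.0129 for SLC30A9, -0.189 to 0.0427 for SLC39A6 and -0.188 to 0.0473 for SLC39A7. SLC39A7 was positive without copper replicate 1 (0.0473), copper replicate 2 (0.0349) or control replicate 3 (0.0297), and in the block without replicate 2 (0.00338). The cause was not tested. Under the block alone no call of the 10 genes changed. The interaction term of SLC30A1 kept its call under 5 alternatives, all of them edgeR fits with another scaling or filter. DESeq2 gave -1.10 with a larger SE (0.43 against 0.20) and no adjusted p (unadjusted p = 0.0112). Mean CPM moved by less than 1 SD under all 3 other scalings, while the length used moved 9 of 10 levels per kilobase. SLC30A1 had the fewest counts of the 10 genes (154 to 491 per library) and the largest SE.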
